A study of Saccharomyces cerevisiae with 10 samples.

Results

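The regions described here are the listed ORC and ATAC-seq peaks that lie near the ends of the yeast chromosomes. A peak was taken as subtelomeric when its midpoint lay within 20 kb of either end of any of the 16 nuclear chromosomes. The left end was position 0, and the right end was the largest peak end over the 4 lists on that chromosome. By this rule 399 of all 7774 listed peaks were subtelomeric, and 7359 of the 7758 nuclear peaks lay in the rest of the chromosomes, called the interior below. The subtelomeric windows held 640 kb, or 5.32% of the 12029 kb spanned by the lists. On all 16 chromosomes the right end was set by an ATAC-seq peak, so a right-hand distance is measured from the outermost listed peak and the chromosome may run on beyond it.

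The study asked how budding yeast ORC behaves when Orc4 lacks its insertion helix. The Orc4-IHΔ strain carried an ectopic orc4 gene without this helix at ura3-1, and the WT strain carried an ectopic full-length ORC4 there, each under the native promoter. Both strains were in the W303-1a background, carried a Myc tag on Orc6, and kept their endogenous ORC4 under the GALS promoter, so that it was depleted by growth in glucose medium (YPD) at 30 °C, which lasted 18 h or more. The arrest in G2/M used benomyl at 20 µg/ml for about 3 h. ORC was mapped by ChIP-seq of the tag and open chromatin by ATAC-seq. The Orc4-IHΔ and WT strains each had 1 ORC peak list and 1 ATAC-seq peak list, while the design text counts 2 ORC libraries and 1 ATAC-seq library per strain. The lists carry no read counts, so the depth behind each peak is unknown, and with 1 list per strain and assay no difference between strains could be set against replicate spread. Intervals given below cover counting error alone, peaks of a list are not replicates, and no test was made.

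The subtelomeres of budding yeast end in telomeric repeats next to X elements, which occur at nearly every end, and at some ends Y′ elements lie outside them. X elements hold binding sites for ORC, and the Sir proteins, which ORC helps to recruit at silencers, keep much of this chromatin silent, while origins of replication there mostly fire late or are copied passively. ATAC-seq cuts DNA that is not packed in nucleosomes or held by other proteins, so its peaks mark open sites such as promoters. No gene, silencer or element was assigned to a peak, because no annotation in the build of the lists, sacCer2, was used. The ATAC-seq lists carry a contradiction, in that their names give the opposite strain to that in the labels of the samples. The numbers of ATAC-seq peaks that the study gives for each strain go with the names of the lists and against the labels. The strains of the ATAC-seq peaks nevertheless follow the labels below, and every direction between these lists is uncertain for that reason. Merging both ATAC-seq lists into regions does not depend on it.

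The plot of all listed peaks at the 32 ends shows how they were spread. Orc4-IHΔ ORC peaks numbered 116 subtelomeric of 2216 nuclear, and WT ORC peaks numbered 43 of 615. The ATAC-seq list labelled Orc4-IHΔ held 125 subtelomeric peaks of 2450 nuclear, and the list labelled WT held 115 of 2477. An Orc4-IHΔ ORC peak was present at 27 of the 32 ends, and a WT ORC peak at 25. Orc4-IHΔ had more ORC peaks than WT at 24 ends, fewer at 1 and as many at 7, of which 4 had neither. ATAC-seq peaks were present at 30 ends in the list labelled Orc4-IHΔ and at 31 in the list labelled WT.

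**Figure D1:**
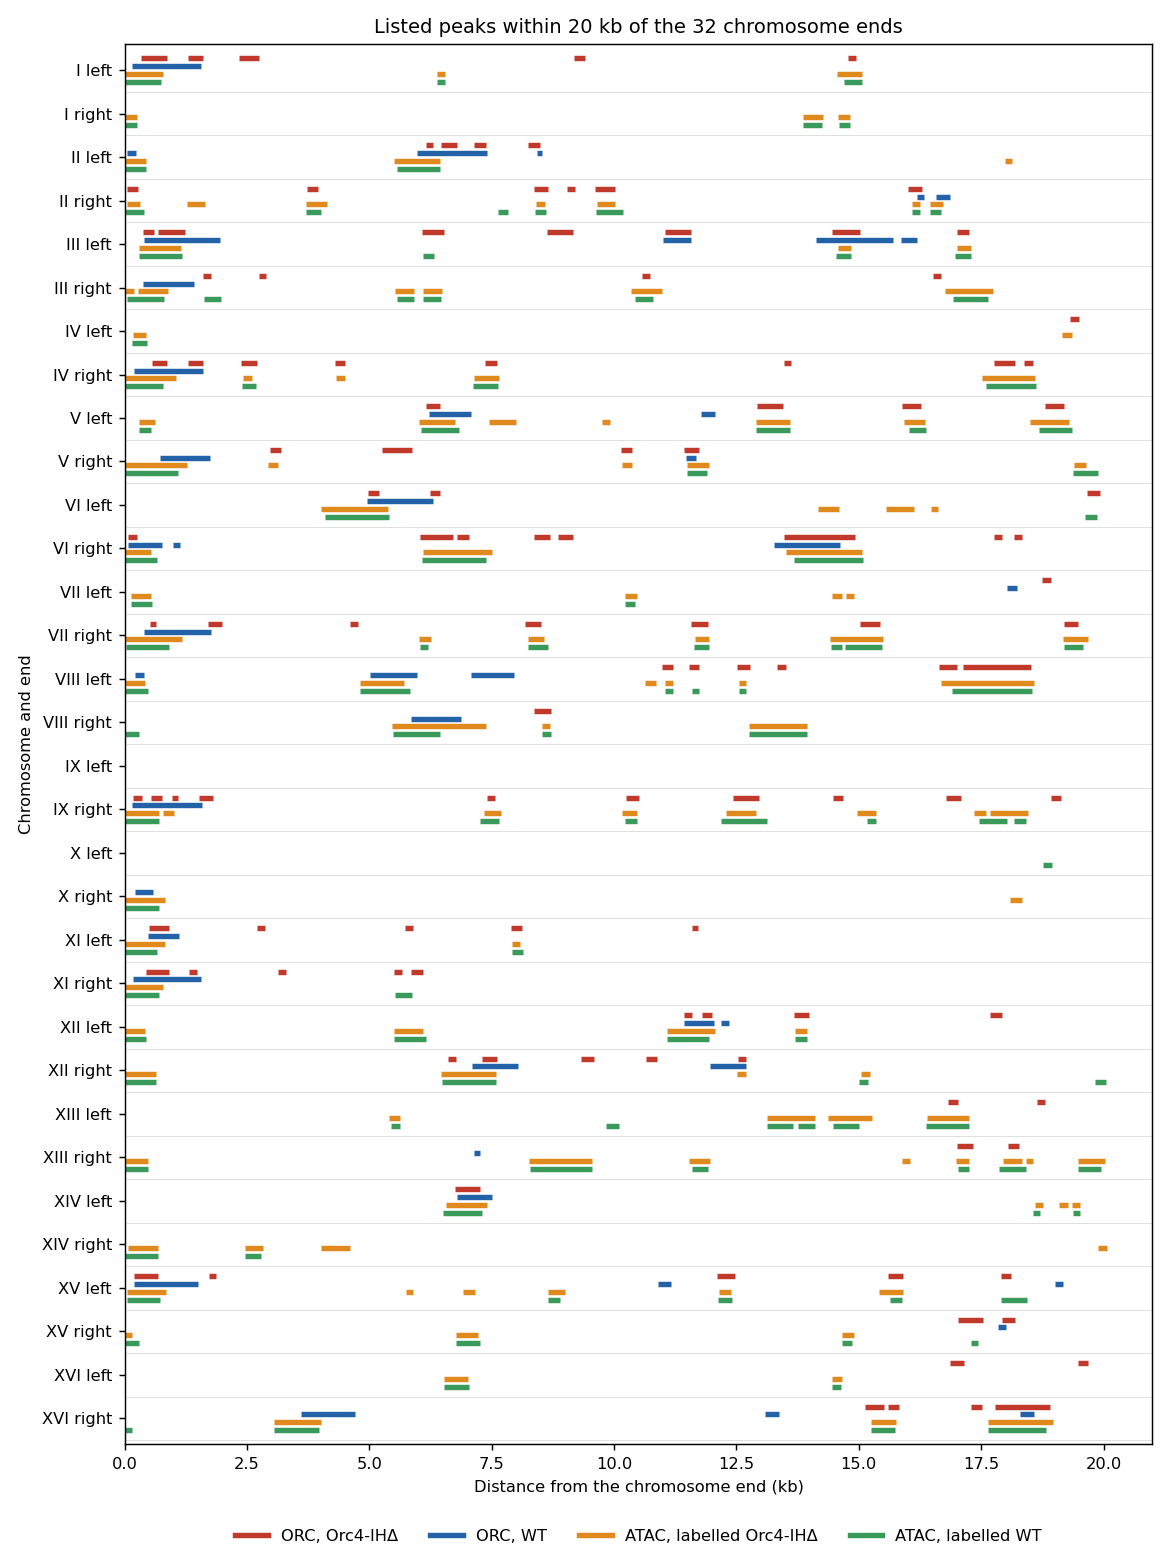
Listed peaks within 20 kb of the 32 chromosome ends, with 1 row per end, the distance from the end in kb on the horizontal axis, and bars from the near to the far edge of each peak for ORC in Orc4-IHΔ, ORC in WT, ATAC-seq labelled Orc4-IHΔ and ATAC-seq labelled WT, from top to bottom in each row. ATAC-seq bars stand at the outermost edge of many rows, with a WT ORC bar of at least 500 bp beside them on 11 ends, and the left end of IX is empty.

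The ends were unequal. The right end of chromosome IX held the highest number with 26 peaks, followed by the right end of II with 22 and, at 21 each, the right end of VII and the left end of VIII. The left end of IX held 0 and the left end of X held 1, a peak of the ATAC-seq list labelled WT at 18.9 kb, while the left end of IV and the right end of X held 4 each. At the left end of IX the nearest listed peak was an ATAC-seq peak 22.0 kb from position 0. Left ends together held 50 Orc4-IHΔ and 22 WT ORC peaks, and right ends held 66 Orc4-IHΔ and 21 WT ORC peaks.

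At the right end of IX, the WT ORC peak spanned 1445 bp with its midpoint 0.867 kb from the end and a fold enrichment, the excess of reads over background that the peak caller gave, of 6.29. Orc4-IHΔ had 10 ORC peaks at this end, of which 4 lay under or at the edge of that WT peak with fold enrichments of 2.32, 3.38, 1.55 and 5.60 from the end inwards. The other Orc4-IHΔ ORC peaks of this end lay between 7.48 and 19.0 kb, and none of them met a WT ORC peak. At the right end of II, by contrast, 6 Orc4-IHΔ and 2 WT ORC peaks were listed, and no WT peak lay nearer than 16.3 kb. The left end of VIII had 6 Orc4-IHΔ ORC peaks between 11.1 and 17.8 kb and 3 WT ORC peaks between 0.303 and 7.52 kb, so that there the ORC peaks of the strains occupied separate stretches.

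ORC density near the ends differed from that of the interior by less than counting error in Orc4-IHΔ, and the higher WT value also lay within it. Orc4-IHΔ ORC peaks stood at 18.1 per 100 kb in the subtelomeres (95% exact Poisson interval 15.0 to 21.7) and at 18.4 per 100 kb in the interior. Their density ratio was 0.983 (95% exact interval 0.808 to 1.19), and the subtelomeric density was the higher on 9 of 16 chromosomes. WT ORC peaks stood at 6.72 per 100 kb in the subtelomeres (4.86 to 9.05) and at 5.02 per 100 kb in the interior. The WT ratio was 1.34 (0.958 to 1.83), again higher on 9 of 16 chromosomes. When weaker peaks, those under the median fold enrichment of their list, were left out, the WT ratio was 2.06 (1.38 to 2.98), and within 10 kb it was 1.62 (1.05 to 2.39). Between 2 and 20 kb from the end the WT ratio was 0.968 (0.637 to 1.41), and against the stretch from 20 to 40 kb in place of the whole interior it was 1.13 (0.714 to 1.80). The number of Orc4-IHΔ ORC peaks per WT ORC peak was 2.70 in the subtelomeres, 3.67 in the interior and 1.81 in the outermost 5 kb.

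Over the 20 kb as a whole, ATAC-seq density near the ends was slightly lower, with intervals of the ratio that reached past 1. The list labelled Orc4-IHΔ had 19.5 peaks per 100 kb in the subtelomeres and 20.4 in the interior, a ratio of 0.957 (0.793 to 1.15). In the list labelled WT, the densities were 18.0 in the subtelomeres and 20.7 in the interior, a ratio of 0.866 (0.712 to 1.05). On left ends alone, where the end does not depend on the lists, the ratio was 0.827 in the list labelled Orc4-IHΔ and 0.723 (0.532 to 0.962) in the list labelled WT. On right ends alone it was 1.09 in the list labelled Orc4-IHΔ and 1.01 in the list labelled WT. The 20 kb joined unlike parts. In the outermost 2 kb, a window chosen after seeing the data, each list had 42.2 peaks per 100 kb (27.8 to 61.4). There an ATAC-seq peak sets each right end. Between 2 and 20 kb the ratio was 0.833 (0.674 to 1.02) in the list labelled Orc4-IHΔ and 0.737 (0.589 to 0.912) in the list labelled WT. The names of the ATAC-seq lists read as uniquely aligned read pairs, and how much of each end can hold unique reads was not tested.

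In 5-kb bins, WT ORC density had its highest value at the very end, and Orc4-IHΔ ORC density showed no such order. WT ORC density was 10.0, 6.25, 6.25 and 4.38 per 100 kb at 0 to 5, 5 to 10, 10 to 15 and 15 to 20 kb from the end, with an interval of 5.72 to 16.2 in the outermost bin that overlaps those of the other bins. Orc4-IHΔ ORC density was 18.1, 18.8, 15.0 and 20.6 per 100 kb over the same bins. From 20 to 40 kb, the density was 19.4 per 100 kb for Orc4-IHΔ and 5.94 for WT. In the outermost 2 kb, a window chosen after seeing the data, both strains had higher densities. They were 31.2 per 100 kb for Orc4-IHΔ (19.1 to 48.3) and 23.4 for WT (13.1 to 38.7). Between 2 and 20 kb they were 16.7 for Orc4-IHΔ and 4.86 for WT.

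**Figure D2:**
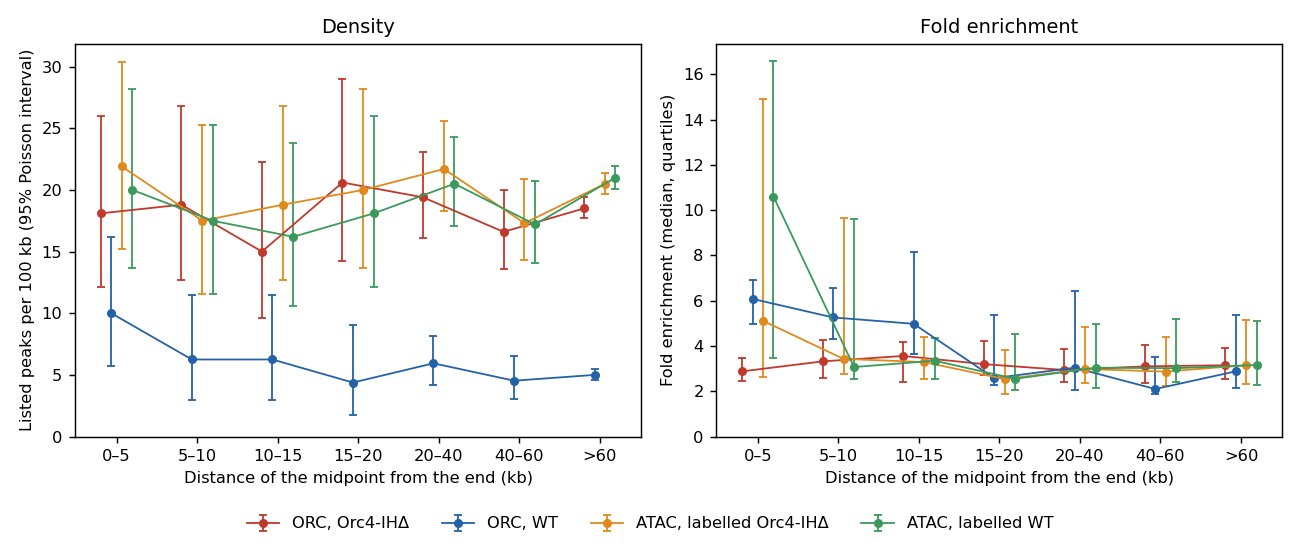
Peaks per 100 kb with 95% Poisson intervals (left) and median fold enrichment with quartiles (right) against the distance of the peak midpoint from the chromosome end in kb, for the 4 lists. WT ORC density was 10.0 per 100 kb in the outermost 5 kb and 4.38 at 15 to 20 kb, and the median fold enrichment of the ATAC-seq list labelled WT was 10.6 in the outermost 5 kb and 2.55 at 15 to 20 kb.

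WT ORC peaks near the ends were wide and strong, and Orc4-IHΔ ORC peaks there resembled those of the interior in size. The median width of Orc4-IHΔ ORC peaks was 244 bp in the subtelomeres and 242 bp in the interior. Their median fold enrichment was 3.18 in the subtelomeres and 3.15 in the interior. For WT ORC the median width was 695 bp in the subtelomeres, against 319 bp in the interior, and the median fold enrichment was 5.60 in the subtelomeres, against 2.82 in the interior. The WT width depended on the window, with a median of 348 bp within 30 kb of the end and of 442 bp between 2 and 20 kb. The WT values declined inwards. Median WT width was 1080, 903, 436 and 189 bp from the outermost to the innermost 5-kb bin, and median WT fold enrichment was 6.08, 5.26, 4.98 and 2.58. In Orc4-IHΔ the median fold enrichment was 2.88, 3.32, 3.56 and 3.20 over these bins. The quartiles of the outermost bin, 2.44 and 3.46, spanned a range that overlapped those of the other bins. Fold enrichments of the strains come from separate peak calls, and the names of the ORC peaks trace to a single numbered call set per strain, so each may be the value of 1 library.

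ATAC-seq peaks had like medians in both places but a longer upper tail near the ends. Median fold enrichment in the list labelled Orc4-IHΔ was 3.31 in the subtelomeres and 3.12 in the interior, and the upper quartile was 8.02 in the subtelomeres and 5.10 in the interior. The list labelled WT had medians of 3.40 in the subtelomeres and 3.15 in the interior, with upper quartiles of 9.24 in the subtelomeres and 5.11 in the interior. Peaks in the strongest 10% of their own list made up 17 of 35 peaks in the outermost 5 kb in the list labelled Orc4-IHΔ, and 17 of 32 in the list labelled WT. In the interior they made up 9.12% of the list labelled Orc4-IHΔ and 9.10% of the list labelled WT.

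Among the 5 strongest subtelomeric ATAC-seq peaks of each list, all but those at 2 places on the left arm of XII stood in the outermost 2 kb. In the list labelled Orc4-IHΔ, the highest fold enrichments were 21.3 at the right end of X (chrX:744906-745726), 20.3 at the right end of IX (chrIX:439222-439924) and 19.0 at the left end of III (chrIII:296-1157). The 4th and 5th were 18.9 at the right end of XI and 18.8 at chrXII:11081-12068. In the list labelled WT, the right end of X reached 23.5, the right end of IX reached 22.7, the left end of III reached 20.6, and the outermost peak of the left end of XII, 436 bp wide, reached 20.5. A peak on the left arm of XII, at chrXII:5498-6150, reached 23.1 in the list labelled WT. Of these places, the right end of X carried a WT ORC peak of 369 bp with a fold enrichment of 3.04 and no Orc4-IHΔ ORC peak within 20 kb. The widest subtelomeric ATAC-seq peaks measured 1923 bp in the list labelled Orc4-IHΔ, at chrVIII:555199-557121, and 1638 bp in the list labelled WT, at chrVIII:16902-18539.

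Sharing between strains was counted when a peak overlapped a peak of the other strain by at least 1 bp. Of the 116 subtelomeric Orc4-IHΔ ORC peaks, 36 overlapped a WT ORC peak (31.0%, 95% Wilson interval 23.3 to 39.9), against 273 of the 2100 interior ones (13.0%, 11.6 to 14.5) and 13.9% over all nuclear Orc4-IHΔ ORC peaks. The subtelomeric share was the higher on 13 of the 15 chromosomes with such peaks. WT ORC peaks also covered more of the bases near the ends, 4.89% in the subtelomeres and 2.31% in the interior. How much of the difference in sharing goes with this coverage was not tested. Of the 43 subtelomeric WT ORC peaks, 24 overlapped an Orc4-IHΔ ORC peak (55.8%, 41.1 to 69.6), against 252 of the 572 interior ones (44.1%) and 44.9% over all nuclear WT ORC peaks. That share was higher on 11 of 16 chromosomes, while Orc4-IHΔ ORC peaks covered 5.55% of the bases in the subtelomeres and 6.02% in the interior. The larger share among Orc4-IHΔ ORC peaks was concentrated at the outer edge, with 58.6% in the outermost 5 kb, 30.0% at 5 to 10 kb, 29.2% at 10 to 15 kb and 9.09% at 15 to 20 kb, next to 8.06% at 20 to 40 kb.

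In the outermost 2 kb, a window chosen after seeing the data, 17 of 20 Orc4-IHΔ ORC peaks overlapped a WT peak, against 19.8% of those between 2 and 20 kb. WT ORC peaks covered 22.2% of the bases in the outermost 2 kb and 2.97% between 2 and 20 kb. The width of the WT peaks moved with this sharing, since a wide peak can meet several narrow ones, and its part in the result was not tested. Peaks were also split at the median width of their own list, after seeing the data. Orc4-IHΔ sharing was 37.3% in the subtelomeres and 16.4% in the interior for wide peaks, and 24.6% and 9.61% for narrow ones. WT sharing was 73.1% in the subtelomeres and 54.4% in the interior for wide peaks, and 29.4% and 33.9% for narrow ones. When each peak had to cover at least 50% of the other, the order of subtelomeres and interior turned round in both strains, by less than counting error. For Orc4-IHΔ 4.31% were shared in the subtelomeres (1.85 to 9.69) and 5.24% in the interior. For WT 11.6% were shared in the subtelomeres (5.07 to 24.5) and 19.2% in the interior. A narrow peak cannot cover 50% of a much wider one, so the widths alone limit this share.

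ATAC-seq peaks were shared between the lists far more often than ORC peaks, near the ends and in the interior. In the list labelled Orc4-IHΔ, 102 of 125 subtelomeric peaks overlapped the list labelled WT (81.6%, 73.9 to 87.4), against 88.9% of interior peaks and 88.5% of all nuclear ones. In the list labelled WT, 102 of 115 subtelomeric peaks overlapped the other list (88.7%, 81.6 to 93.3), against 86.5% of interior peaks and 86.6% of all nuclear ones. The peaks without a counterpart were weak. The 23 such subtelomeric peaks of the list labelled Orc4-IHΔ had a median fold enrichment of 2.22 and a median width of 209 bp, and the 102 shared ones had medians of 3.88 and 446 bp. The 13 such peaks of the list labelled WT had medians of 2.28 and 234 bp, and the 102 shared ones had 3.64 and 434 bp.

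WT ORC peaks met ATAC-seq peaks more often near the ends than in the interior, while for Orc4-IHΔ ORC peaks the share near the ends was lower by less than counting error. Of the subtelomeric Orc4-IHΔ ORC peaks, 75 met an ATAC-seq peak of at least 1 of the lists (64.7%, 55.6 to 72.8), against 1465 of the interior ones (69.8%, 67.8 to 71.7) and 69.5% over all nuclear Orc4-IHΔ ORC peaks. That share was the higher in the subtelomeres on 5 of 15 chromosomes, and the order turned within 30 kb, with 71.2% near the ends and 69.3% in the interior, and under reciprocal overlap of 50%, with 32.8% near the ends and 31.1% in the interior. Of the subtelomeric WT ORC peaks, 30 overlapped an ATAC-seq peak (69.8%, 54.9 to 81.4), against 197 of the interior ones (34.4%, 30.7 to 38.4) and 36.9% over all nuclear WT ORC peaks. It was the higher on 14 of 16 chromosomes. The WT share was 93.8% in the outermost 5 kb, 70.0% at 5 to 10 kb, 50.0% at 10 to 15 kb and 42.9% at 15 to 20 kb, next to 31.6% at 20 to 40 kb, 3.45% at 40 to 60 kb and 36.4% beyond 60 kb, so that the order by distance did not run on into the interior. Between 2 and 20 kb, without the outermost peaks, the WT share was 57.1%. On left ends alone it was 59.1% (38.7 to 76.7). On right ends alone, where an ATAC-seq peak sets the end, it was 81.0% (60.0 to 92.3).

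Width entered here too. WT ORC peaks at or above the median width of their list, 322 bp, overlapped an ATAC-seq peak in 24 of 26 cases in the subtelomeres (92.3%, 75.9 to 97.9), against 110 of 283 in the interior (38.9%, 33.4 to 44.7). The narrower WT peaks did so in 6 of 17 cases in the subtelomeres (35.3%, 17.3 to 58.7), against 30.1% in the interior. Within the wide class the subtelomeric and interior shares lay apart by more than counting error, and within the narrow class the intervals overlapped. The wide class has no upper limit and was not matched for width between the places. The upper quartile of WT width was 1202 bp in the subtelomeres and 635 bp in the interior. The split therefore does not set width aside, and the part of width was not tested. For Orc4-IHΔ the wide class gave 72.9% in the subtelomeres and 84.2% in the interior, and the narrow class gave 56.1% in the subtelomeres and 55.4% in the interior. These width classes were chosen after seeing the data.

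**Figure D3:**
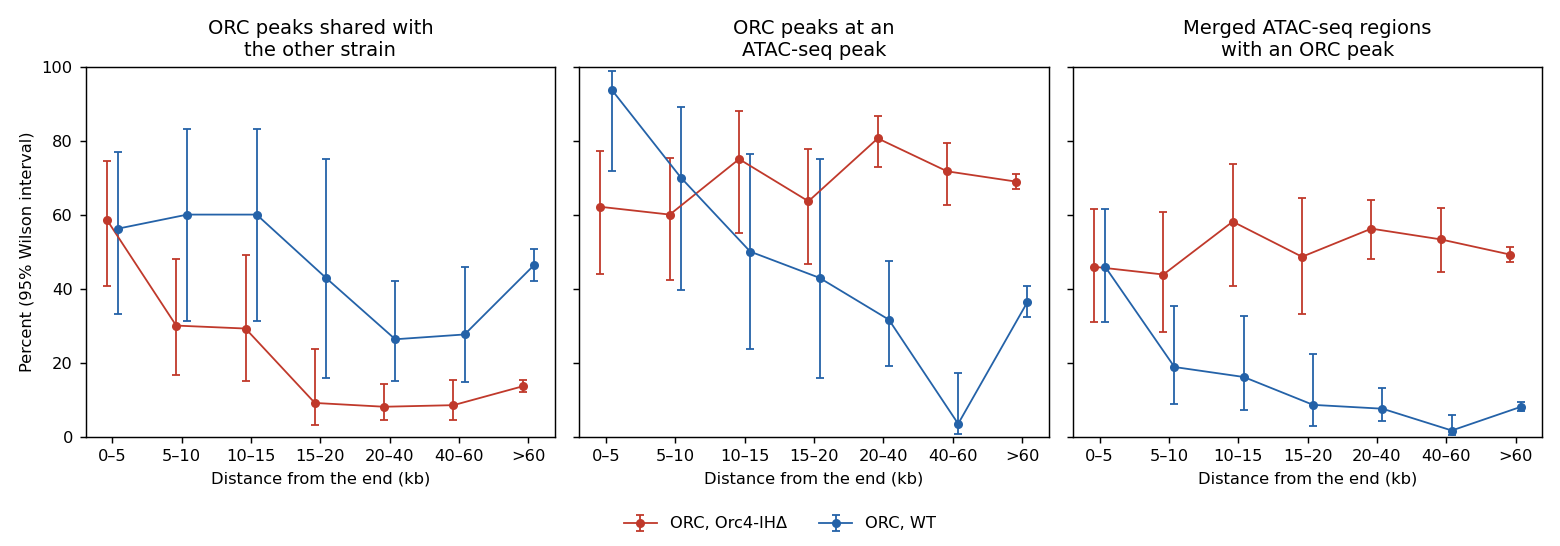
Percent of ORC peaks shared with the other strain (left), percent of ORC peaks at an ATAC-seq peak (middle) and percent of merged ATAC-seq regions with an ORC peak (right), each with 95% Wilson intervals, against distance from the chromosome end in kb, for Orc4-IHΔ and WT. In the outermost 5 kb 45.9% of merged regions carried an ORC peak in each strain, while beyond 60 kb 49.2% did in Orc4-IHΔ and 8.06% in WT.

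Seen from open chromatin, WT ORC was again the more frequent near the ends, and Orc4-IHΔ ORC differed by less than counting error. The ATAC-seq lists merged into 2710 nuclear regions, of which 135 were subtelomeric. An Orc4-IHΔ ORC peak overlapped 66 of the subtelomeric regions (48.9%, 40.6 to 57.2), against 1283 interior ones (49.8%, 47.9 to 51.8) and 49.8% of all regions. A WT ORC peak overlapped 31 of the subtelomeric regions (23.0%, 16.7 to 30.7), against 199 interior ones (7.73%, 6.76 to 8.82) and 8.49% of all regions. The WT share was the higher in the subtelomeres on 15 of 16 chromosomes. It stood at 45.9%, 18.8%, 16.1% and 8.57% over the 4 bins from the end inwards. On left ends alone it was 21.7%, and on right ends alone 24.0%.

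WT ORC differed between subtelomeres and interior at the regions with the highest fold enrichment, and by less than counting error at the others. The strongest 10% of merged regions, a class chosen after seeing the data, had a fold enrichment of at least 8.16, and 34 of them were subtelomeric, 28 within 10 kb of an end. Of these 34, an Orc4-IHΔ ORC peak met 19 (55.9%, 39.5 to 71.1) and a WT ORC peak met 24 (70.6%, 53.8 to 83.2). Of the 237 interior regions in this class, an Orc4-IHΔ ORC peak met 192 (81.0%, 75.5 to 85.5) and a WT ORC peak met 18 (7.59%, 4.86 to 11.7). Among the other 90% of regions, the WT share was 6.93% in the subtelomeres (3.40 to 13.6) and 7.74% in the interior, and the Orc4-IHΔ share was 46.5% in the subtelomeres and 46.7% in the interior. At the strong regions the WT share was thus the higher near the ends and the Orc4-IHΔ share the higher in the interior.

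Region by region, 17 of the 34 strong subtelomeric regions met ORC peaks of both strains, 2 met Orc4-IHΔ ORC alone, 7 met WT ORC alone and 8 met neither. In the interior, 16 of 237 met both, 176 met Orc4-IHΔ ORC alone, 2 met WT ORC alone and 43 met neither. The 2 subtelomeric regions with Orc4-IHΔ ORC alone were chrIV:1506804-1507899 and chrVI:262669-264097. Regions with WT ORC alone lay at the right ends of III, V and X and the left end of VIII, and farther in at chrVIII:4806-5837, chrVIII:555199-557121 and chrXVI:942320-943281.

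**Figure D4:**
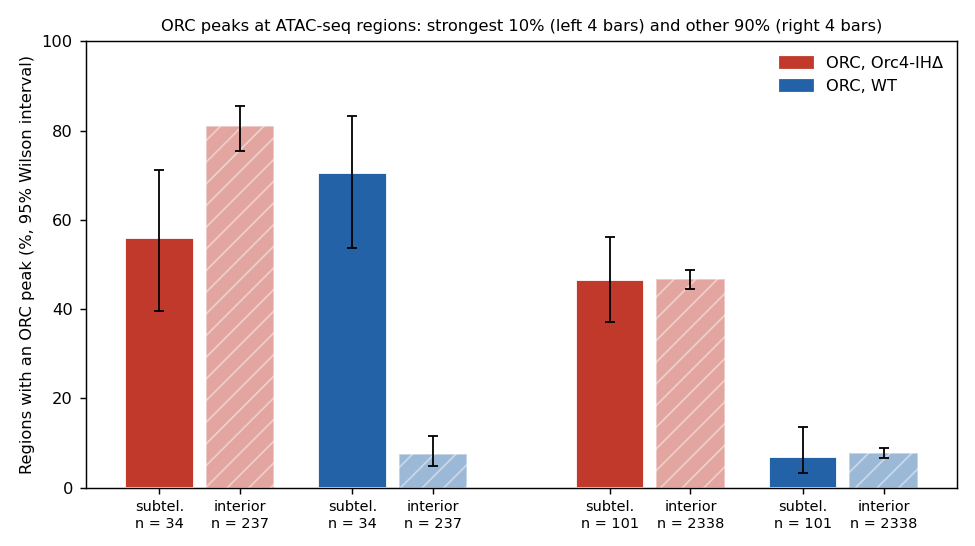
Percent of merged ATAC-seq regions with an ORC peak, with 95% Wilson intervals, for the strongest 10% of regions by fold enrichment (34 subtelomeric and 237 interior) and for the other 90% (101 subtelomeric and 2338 interior). In the strongest class, 55.9% of subtelomeric and 81.0% of interior regions had an Orc4-IHΔ ORC peak, while 70.6% of subtelomeric and 7.59% of interior regions had a WT ORC peak.

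The outermost 2 kb showed this arrangement in its plainest form. A WT ORC peak lay there at 14 of 32 ends, and at 11 of these it was at least 500 bp wide. The wide peaks had widths of 647 to 1553 bp, midpoints 406 to 1234 bp from the end (median 872 bp) and fold enrichments of 5.60 to 9.86. They lay at the left ends of I, III, XI and XV and at the right ends of III, IV, V, VI, VII, IX and XI. On the 4 left ends, where the end does not rest on the lists, the midpoints ran from 790 to 1171 bp, and on the 7 right ends from 406 to 1234 bp.

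Every one of these 11 ends also had an ATAC-seq peak of each list, with fold enrichments of 8.02 to 20.3 in the list labelled Orc4-IHΔ and 9.69 to 22.7 in the list labelled WT. On 11 of 11 ends the WT ORC midpoint lay farther from the end than that of the widest peak of the ATAC-seq list labelled WT, whose midpoints were 330 to 729 bp from the end. Over all 14 ends with a WT ORC peak in this window the order held at 13, and the left end of II went the other way. A choice of wide WT peaks leaves out midpoints very near the end. On right ends part of this order follows from the rule, since an ATAC-seq peak sets the end there, but on the 4 left ends it does not. At the left ends of I and XI, however, the merged ATAC-seq region starts at position 1, so the sequence end bounds it. Among the 18 ends without a WT ORC peak in this window, 1 had an Orc4-IHΔ ORC peak. Of these 18, 10 had an ATAC-seq peak of the list labelled Orc4-IHΔ and 12 one of the list labelled WT. On right ends, however, an ATAC-seq peak of at least 1 list lies at the end by the rule, so its presence there carries no information. Of the 16 left ends, 10 had an ATAC-seq peak of each list in this window, among them the 6 with a WT ORC peak.

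Orc4-IHΔ ORC was listed at the same ends as smaller and weaker peaks. It had a peak in the outermost 2 kb at 10 of the 11 ends, with 19 peaks in all, and the widest at each end measured 156 to 544 bp. The highest Orc4-IHΔ fold enrichment at an end was 2.44 to 5.60, below the WT value at 10 of 10 ends. At the left end of III, for example, Orc4-IHΔ peaks of 215 and 544 bp had fold enrichments of 2.58 and 3.80, and the WT peak of 1553 bp had 6.21. At the right end of V, the exception, the WT peak of 1023 bp had a fold enrichment of 5.60 and no Orc4-IHΔ ORC peak lay nearer than 3.08 kb. At the right end of III the Orc4-IHΔ peak did not overlap the WT peak. All 11 ends were picked through a wide WT peak, so the smaller and weaker Orc4-IHΔ peaks there follow in part from that choice. Counted by position, the Orc4-IHΔ ORC peaks covered at most 8 ends at once, 565 to 585 bp from the end, and the WT ORC peaks at most 11, between 475 and 1105 bp. ATAC-seq peaks labelled Orc4-IHΔ covered at most 22 ends, at 295 to 305 bp, and those labelled WT at most 23, at 135 to 245 bp.

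**Figure D5:**
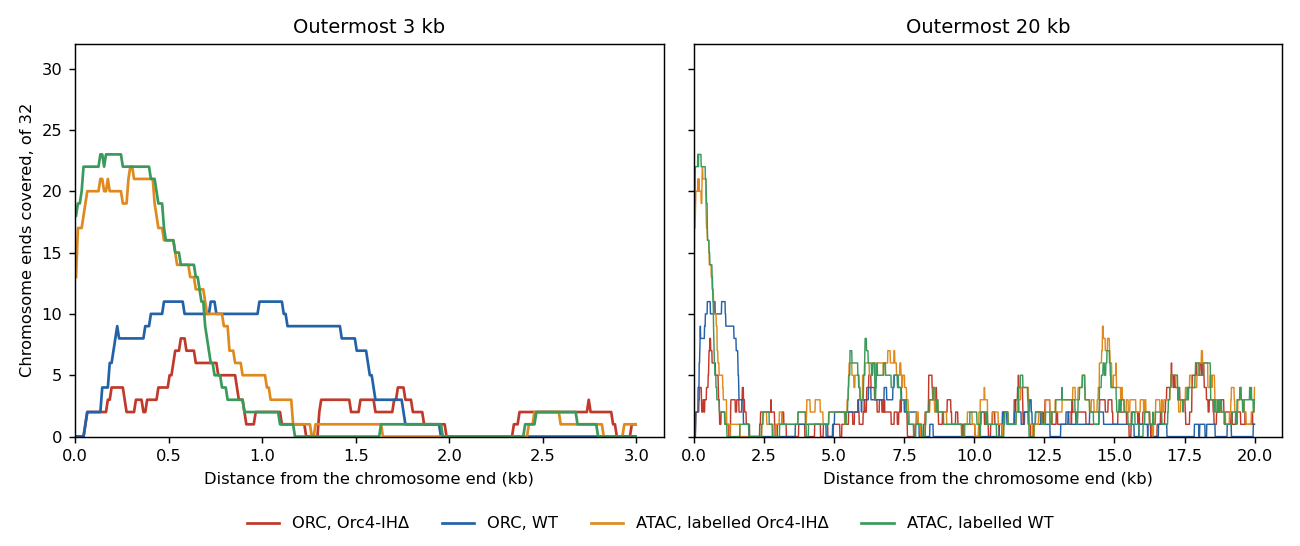
Number of the 32 chromosome ends covered by a peak of each list at each distance from the end in kb, for the outermost 3 kb (left) and 20 kb (right). The ATAC-seq curve labelled Orc4-IHΔ reaches 22 ends and the one labelled WT 23, both nearest the end. The Orc4-IHΔ ORC curve reaches 8 at 565 to 585 bp, and the WT ORC curve reaches 11 between 475 and 1105 bp. Beyond 3 kb no curve exceeds 9 ends.

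Places where all 4 lists overlapped 1 merged ATAC-seq region numbered 20 in the subtelomeres (14.8% of 135), against 134 in the interior (5.20% of 2575), and 9 of the 20 lay within 2 kb of an end. The 14 within 10 kb differed from the 6 farther in. Within 10 kb the highest Orc4-IHΔ ORC fold enrichment in a region was 1.63 to 4.43 (median 2.48) and the highest WT value was 4.09 to 8.41 (median 6.25), with Orc4-IHΔ below WT in 14 of 14. Of these 14, the 9 within 2 kb lay at ends already picked above through a wide WT ORC peak, so the count in part repeats that result. Between 10 and 20 kb Orc4-IHΔ was below WT in 2 of 6 and above it in 4. No such count was made for the 134 interior places. The clearest of the 4 with Orc4-IHΔ above WT were chrVI:255093-256665 and chrV:558860-559305. The first had ORC fold enrichments of 12.9 in Orc4-IHΔ and 8.58 in WT, and the second had 6.49 in Orc4-IHΔ and 2.59 in WT.

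Where 1 ORC peak of each strain overlapped each other and no further peak, the fold enrichments could be compared in pairs. The 15 subtelomeric pairs had medians of 3.66 in Orc4-IHΔ and 5.68 in WT, with a median log2 ratio of Orc4-IHΔ over WT of -0.55 and Orc4-IHΔ lower in 9. The 216 interior pairs had medians of 3.30 in Orc4-IHΔ and 3.13 in WT and a median log2 ratio of -0.04. Since the quartiles of the subtelomeric log2 ratio were -0.93 and 0.43, the pairs went both ways. For ATAC-seq, 28 such pairs lay in the outermost 5 kb, with medians of 11.0 in the list labelled Orc4-IHΔ and 13.4 in the list labelled WT, the first being lower in 21, while over the 94 subtelomeric pairs it was lower in 49.

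The strongest subtelomeric ORC peak of each strain lay more than 10 kb from the end. In Orc4-IHΔ the highest fold enrichment, 12.9, belonged to chrVI:255262-256695, 14.2 kb from the right end, which at 1434 bp was also the widest. It was followed by chrIII:14448-15033 at 11.2, chrIII:11030-11581 at 8.40, chrII:798817-799238 at 8.14 and chrXVI:927422-928537 at 6.95. In WT the highest was chrIII:14116-15702, 14.9 kb from the left end, at 11.1, and at 1587 bp also the widest. Next came chrIII:315040-316096, at the right end of III, at 9.86, chrIII:11006-11578 at 8.75, chrVI:255565-256905 at 8.58 and chrVI:269423-270117, at the right end of VI, at 8.41.

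The left end of chromosome III gathered 2 of these places in each strain, 1 of them 11.3 kb from position 0 and the other 14.7 kb in Orc4-IHΔ and 14.9 kb in WT, and there the strains had nearly equal fold enrichments. The left arm of III is known to carry a silent mating-type cassette flanked by silencers that ORC binds, but the peaks were not matched to it. The outer place, chrIII:11006-11578 in WT, met no ATAC-seq peak of either list. The inner place met an ATAC-seq peak with a fold enrichment of 2.68 in the list labelled Orc4-IHΔ and 3.54 in the list labelled WT, low next to the ORC values of 11.2 in Orc4-IHΔ and 11.1 in WT.

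ORC peaks listed in a single strain were less frequent near the ends than in the interior, for WT by less than counting error. Of the 116 subtelomeric Orc4-IHΔ ORC peaks, 80 met no WT peak, against 1827 of the 2100 interior ones, and 13.9% of all nuclear ones met one. The strongest of the 80 were chrII:798817-799238 at 8.14, chrVIII:553864-554224 at 6.66 and chrV:15875-16262 at 5.60, each at an ATAC-seq peak. Of the 43 subtelomeric WT ORC peaks, 19 met no Orc4-IHΔ peak, against 320 of the 572 interior ones, and 44.9% of all nuclear ones met one. The strongest of the 19 were chrIII:315040-316096 at 9.86, chrVIII:7083-7949 at 7.16, away from any ATAC-seq peak, and chrXVI:941608-942710 at 6.09. The 50 Orc4-IHΔ peaks without a WT counterpart but at an ATAC-seq peak made up 43.1% of the subtelomeric Orc4-IHΔ list, against 62.4% in the interior. The matching WT class, 9 peaks without an Orc4-IHΔ counterpart but at an ATAC-seq peak, made up 20.9% in the subtelomeres, against 9.27% in the interior. WT peaks with neither an Orc4-IHΔ counterpart nor an ATAC-seq peak made up 23.3% in the subtelomeres, against 46.7% in the interior.

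The peaks beside the 20-kb limit were as follows. The last Orc4-IHΔ ORC peak inside lay at 19.8 kb with a fold enrichment of 3.57 and the first outside at 20.02 kb with 3.18. For WT ORC they lay at 19.09 kb with 2.58 and at 20.07 kb with 1.75. In the ATAC-seq list labelled Orc4-IHΔ the peaks beside the limit had fold enrichments of 2.82 inside and 2.91 outside, and in the list labelled WT of 2.05 inside and 3.65 outside.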

How the data were processed

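The 4 peak lists used, in narrowPeak form, were 1 for ORC ChIP-seq and 1 for ATAC-seq in each strain. The authors deposited for each peak a score, a fold enrichment (a ratio over background) and −log10 p- and q-values. The submitters' processing notes name Bowtie 1.2.2, Bowtie2 2.3.4.1, Picard, SAMtools 1.3.1, bedtools 2.27.1, MACS2 2.1.1.20160309 and the build sacCer2, without saying which tool made which list. The list names read as ORC peaks common to libraries with those at RNA genes left out, and as ATAC-seq peaks of uniquely aligned pairs, and the effect of these filters at chromosome ends was not tested. Read counts, and so the depth per sample, were not used here and are unknown from the lists.

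The midpoint of each peak was placed against the nearer chromosome end. Sharing and ORC at ATAC-seq peaks needed an overlap of at least 1 bp, and overlapping ATAC-seq peaks were merged across the lists. Densities have 95% exact Poisson intervals, density ratios exact binomial (Clopper-Pearson) intervals and shares Wilson intervals. No test was made. Some ORC peaks are pieces of 1 call, since 8 of 116 subtelomeric Orc4-IHΔ and 2 of 43 WT peaks shared a name with another peak. Peaks were named by rule: the 5 of highest fold enrichment and the widest of each list, the 3 highest ORC peaks without a counterpart, the ends with the most and the fewest peaks, and places shared by all 4 lists. Strong regions named beside these were chosen after their values were seen. The members and lists were chosen with earlier results of these data known. Alternatives were other windows (10 and 30 kb), single sides, other overlap rules, stronger peaks and the swapped ATAC-seq strains, and the code that finds overlaps was tested on simulated lists. Python 3.11.15, pandas 2.3.3, numpy 2.4.6, scipy 1.17.1 and matplotlib 3.10.9 were used.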

Additional observations from a re-analysis of the deposited data

Results flagged for a closer look

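In 3 measures the difference between subtelomeres and interior had opposite signs in the Orc4-IHΔ and WT lists, and with 1 list per strain this was not tested. Both ORC densities and the Orc4-IHΔ ORC share at ATAC-seq peaks differed from the interior by less than counting error, and their signs changed in other windows. ORC density in the subtelomeres minus that in the interior was -0.313 peaks per 100 kb in Orc4-IHΔ and 1.70 in WT. The share of ORC peaks at an ATAC-seq peak differed in the same sense by -5.11 percentage points in Orc4-IHΔ and 35.3 in WT. The share of ATAC-seq peaks that met the other list differed by -7.30 percentage points in the list labelled Orc4-IHΔ and 2.16 in the list labelled WT, and the strains of these lists are uncertain, since the study's peak numbers go with the list names and not with the labels.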

How the results depend on the processing

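Over 12 densities and shares and 134 alternative values, 105 stayed within the counting interval of the value reported, 29 moved beyond it, and of 52 values of 8 medians 4 moved. Some alternatives could hardly move a value. Joining the pieces of ORC calls left the ATAC-seq density ratios at 0.957 and 0.866, and the swap of strains only exchanged the values of the lists. The counts here and below are therefore no measure of stability. The ratio of subtelomeric to interior density fell on the other side of 1 in 7 of 40 alternatives, 3 for Orc4-IHΔ ORC, 1 for WT ORC (0.968 at 2 to 20 kb), 2 for ATAC-seq labelled Orc4-IHΔ and 1 for ATAC-seq labelled WT. The cause of each move was not tested. Within 10 kb, Orc4-IHΔ ORC peaks shared with WT made up 44.1%, WT ORC peaks at ATAC-seq peaks 84.6% and regions with WT ORC 33.3%, and within 30 kb these were 22.3%, 54.7% and 16.3%. Without peaks under the median fold enrichment, sharing was 23.3% for Orc4-IHΔ ORC, 40.6% for WT ORC and 90.6% for ATAC-seq labelled Orc4-IHΔ, Orc4-IHΔ ORC at ATAC-seq peaks was 38.3%, regions had Orc4-IHΔ ORC in 30.0% and WT ORC in 34.3%, and the WT ORC density ratio was 2.06. With reciprocal overlap of 50%, sharing was 4.31% for Orc4-IHΔ and 11.6% for WT ORC, ORC at ATAC-seq peaks was 32.8% for Orc4-IHΔ and 23.3% for WT, and regions had Orc4-IHΔ ORC in 28.1% and WT ORC in 7.41%. By midpoint, WT ORC sharing was 34.9%, WT ORC at ATAC-seq peaks 44.2% and regions with Orc4-IHΔ ORC 38.5%. With regions of both ATAC-seq lists, Orc4-IHΔ ORC at ATAC-seq peaks was 52.6%. With ATAC-seq strains swapped, sharing was 88.7% for the list labelled Orc4-IHΔ and 81.6% for the list labelled WT. Alternatives added after seeing the data gave, for 2 to 20 kb, 19.8% sharing for Orc4-IHΔ ORC and 15.1% of regions with WT ORC, and for wide ORC peaks 72.9% of Orc4-IHΔ and 92.3% of WT at ATAC-seq peaks. The subtelomeric share exceeded the interior share under 13 of 13 alternatives for WT ORC at ATAC-seq peaks and 12 of 12 for regions with WT ORC, under 10 of 11 for Orc4-IHΔ and for WT ORC sharing, under 5 of 12 for regions with Orc4-IHΔ ORC and under 2 of 13 for Orc4-IHΔ ORC at ATAC-seq peaks. No paired analysis was possible because each strain and assay has 1 list. Unknown depth limits what a missing peak can show.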
